A study of Mus musculus with 10 samples.

Results

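The regions described here are 871 stretches of 2 kb on the autosomes of mouse embryonic stem (ES) cells that held H3K4me3 before differentiation and lost it in both ways of differentiating the line XT67E1. They were found by counting read midpoints in mm9 bins of 2 kb. A bin was taken when it held 25 or more H3K4me3 reads in undifferentiated XT67E1, at most 0.5 of that number both at day 4 of treatment with all-trans retinoic acid (atRA) and in embryoid bodies (EBs) of day 10, and fewer than 20 H3K27me3 reads in undifferentiated XT67E1. These were 871 of 1236200 autosomal bins, and 11.0% of the 7894 bins that met the starting limits on both marks. The loss of H3K4me3 is therefore what chose the bins, and the measurements of interest are those of H3K27me3.

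H3K4me3 is laid down at the start sites of active genes, and H3K27me3 is placed by Polycomb repressive complex 2 on genes that are held silent. In ES cells many developmental promoters carry both marks, while promoters of genes active in the pluripotent state carry H3K4me3 with little H3K27me3. When ES cells differentiate, genes of the pluripotent state are shut down, and loss of H3K4me3 may or may not be followed by H3K27me3, since silencing can also go through DNA methylation or other marks.

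Chromatin immunoprecipitation and sequencing gave 10 libraries from 3 lines of ES cells, with a single library for each mark in each condition. XT67E1 (strain label C3H/Pgk*129) was profiled for H3K4me3 and H3K27me3 undifferentiated, with atRA at day 4 and as EBs at day 10, and LF2 and E14 (both labelled 129/Ola) for H3K27me3 undifferentiated and as EBs at day 10. All ES cells were kept in serum with LIF on gelatin, and EBs were made by taking LIF away. E14 comes from a male embryo, and the other lines are female. EBs are aggregates of several cell types, so a mark in fewer cells and less mark per cell cannot be told apart. Bins are given by mm9 position without gene names, because annotation of that build was not used here, and marker genes of ES or differentiated cells could not be placed.

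Each H3K4me3 library held 2252395 reads, each XT67E1 H3K27me3 library 8380007, and each LF2 or E14 library 4531733. Values were scaled to autosomal reads, and levels are given as RPKM taken over autosomal reads (reads per kb of bin, scaled by the autosomal total of the library), on which scale the mean over all autosomal bins was 0.4045 in every library. Intervals are exact 95% intervals and cover counting error only. The comparison set was 6031 bins that met the same starting limits and kept more than 0.5 of their H3K4me3 with both treatments, called kept bins below. The 312 bins that lost H3K4me3 with atRA only and the 680 that lost it in EBs only were read beside them.

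As a description of the choice, the 871 bins held a median of 39 H3K4me3 reads before differentiation (25 to 217), 10 with atRA (0 to 101) and 12 in EBs (0 to 79). Kept bins had medians of 43, 45 and 35 reads. H3K4me3 was also lower beside the bins: at 1 to 2 kb from the bin centre its level was 6.86 before differentiation, 3.07 with atRA and 2.96 in EBs, and at 2 to 5 kb 2.46, 1.22 and 1.30. Around kept bins it was 3.98, 3.75 and 3.16 at 1 to 2 kb. Zones around the 871 bins can include other bins of the 871, whose loss the rule selected. Counting adjoining bins that each met the rule, which does not measure the extent of the loss, the 871 bins formed 731 separate stretches, of which 609 were 1 bin long, 107 were 2 bins, 12 were 3 and 3 were 4 bins (8 kb). Only 96 of the 871 bins lay beside a kept bin, 258 lay beside another such bin but no kept one, and 517 beside neither. They were on all 19 autosomes and made up between 8.09% (chromosome 19) and 17.9% (chromosome 17) of the bins within the starting limits, with 77 of them on chromosome 17, 74 on chromosome 7 and 73 on chromosome 8.

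At the edges of the limits, bins inside and outside compared as follows, as a description. The 53 bins with exactly 25 H3K4me3 reads held on average 3.19 H3K27me3 reads in undifferentiated LF2 and 5.55 in LF2 EBs, and 4.45 and 8.26 in E14. The 33 bins left out with 24 reads held 4.61 and 5.33 in LF2 and 6.24 and 8.70 in E14. At the limit of 0.5, the 174 bins whose larger remaining share was 0.45 or more held 6.18 reads in undifferentiated E14 and 7.81 in EBs, and the 162 bins just beyond it, up to 0.55, held 6.23 and 9.30. The limit on H3K27me3 removed 16 bins that otherwise met the rule. The 6 of them with 20 to 24 reads held on average 74.0 reads in undifferentiated E14 and 65.0 in E14 EBs, whereas the 6 bins inside it with 15 to 19 reads held 32.3 and 38.7.

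Bins that lost H3K4me3 in XT67E1 held more H3K27me3 in the EBs of LF2 and of E14, 2 lines whose libraries took no part in choosing them. In LF2 the summed level was 0.394 before differentiation (interval 0.380 to 0.408) and 0.594 in EBs (0.577 to 0.612), which was 1.51 times as much (1.44 to 1.58). In E14 it was 0.678 (0.660 to 0.697) and 1.05 (1.03 to 1.07), or 1.55 times (1.49 to 1.60). Kept bins went the other way in both lines, with 0.850 times in LF2 (0.834 to 0.866) and 0.766 times in E14 (0.754 to 0.778). The change at the bins that lost H3K4me3 was thus 1.77 times that at kept bins in LF2 and 2.02 times in E14, a ratio that no scaling of the libraries alters. With background scaling, which equalises the less covered 10 kb bins and moved all log2 ratios by -0.23 in LF2 and 0.11 in E14, the ratios at the bins that lost H3K4me3 were 1.29 and 1.67 and those at kept bins 0.724 and 0.824. With 1 library per group, neither line has a replicate test of its own.

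**Figure D1:**
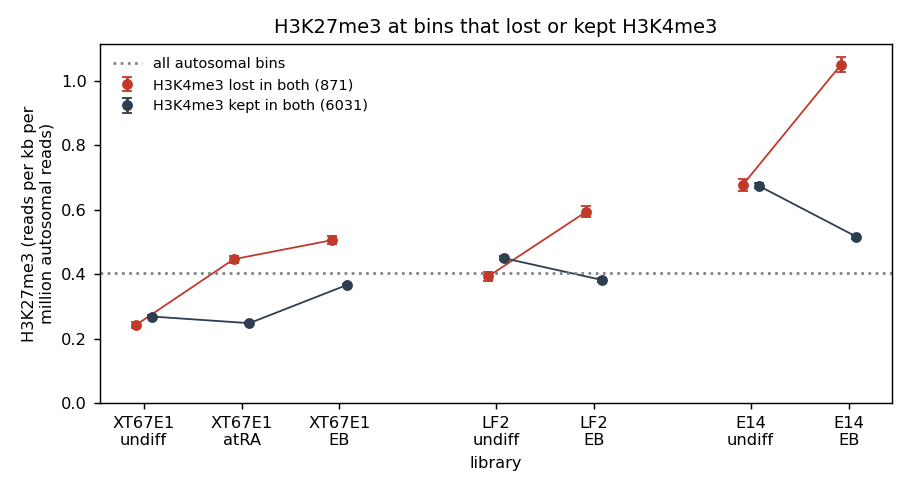
H3K27me3 level (RPKM over autosomal reads, vertical axis) in the 7 libraries at the 871 bins that lost H3K4me3 with both treatments (red) and at the 6031 that kept it (dark). Bars are exact Poisson 95% intervals of the summed reads, and the dotted line is the mean of all autosomal bins. The red points are higher in EBs than before differentiation in each line, from 0.394 to 0.594 in LF2 and from 0.678 to 1.05 in E14, while the dark points are lower in EBs in LF2 and E14.

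The higher level in EBs was unevenly spread over the bins. Over all 871 bins the median log2 ratio was 0.34 in LF2 and 0.22 in E14, beside 0.02 and -0.33 over kept bins and 0.02 and -0.003 over all autosomal bins. Median reads per bin went from 2 to 3 in LF2 and from 3 to 4 in E14. At the upper end the 90th percentile went from 7 to 12 reads in LF2 and from 11 to 23 in E14. The 87 bins with the most reads in each library held 36.1% of the reads of all 871 in undifferentiated LF2 and 40.1% in LF2 EBs, and 45.7% and 51.4% in E14. With so few reads per bin, a small change at any one bin was not detectable at this depth.

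Counted bin by bin, higher bins far outnumbered lower ones. A bin was called when it had 10 or more reads in the 2 libraries, a ratio of 2-fold or more and a counting interval that excluded 1. In LF2, 232 of the 871 bins had enough reads, 54 were higher and 1 was lower, that is 23.3% higher where 2.04% of all autosomal bins were and 0.431% lower where 4.5% were. In E14, 329 bins had enough reads, 87 were higher and 5 lower, which is 26.4% beside 3.13% of all autosomal bins and 1.52% beside 2.34%. The read minimum lets a bin in through its EB reads, so these shares describe the bins that passed and not all 871. Of the kept bins with enough reads, 3.51% were higher and 8.60% lower in LF2, and 2.79% and 12.1% in E14. Leaving out chromosomes 8 and 14 left 46 higher bins in LF2 and 77 in E14.

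The lines were also set side by side bin by bin. Of 188 bins with enough reads in LF2 and in E14, 128 (68.1%) had positive ratios in both, 17 negative ratios in both and 43 opposite signs. Ratios were positive in both lines at 24.3% of all autosomal bins and 16.7% of kept bins with enough reads in both. Since bins pass the read minimum largely through their EB reads, this tally is tilted toward positive signs and describes the 188 bins only. In 36 of the 188, the bin was called higher in both lines. These were 67.9% of the 53 called in LF2 and 52.2% of the 69 called in E14 among those 188. Over all autosomal bins the same shares were 12.6% and 6.58%, and over kept bins 39.5% and 34.9%. Over all autosomal bins with enough reads in both lines, 0.264% were called higher in both, and over kept bins 1.72%. None of the 188 was called higher in one line and lower in the other. Across the 188 bins the log2 ratios of the lines had a Pearson's r of 0.50 and a Spearman's rho of 0.53, given as a description, since bins are not independent replicates and share their libraries. Pearson's r was 0.13 over all autosomal bins and 0.37 over kept bins.

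**Figure D2:**
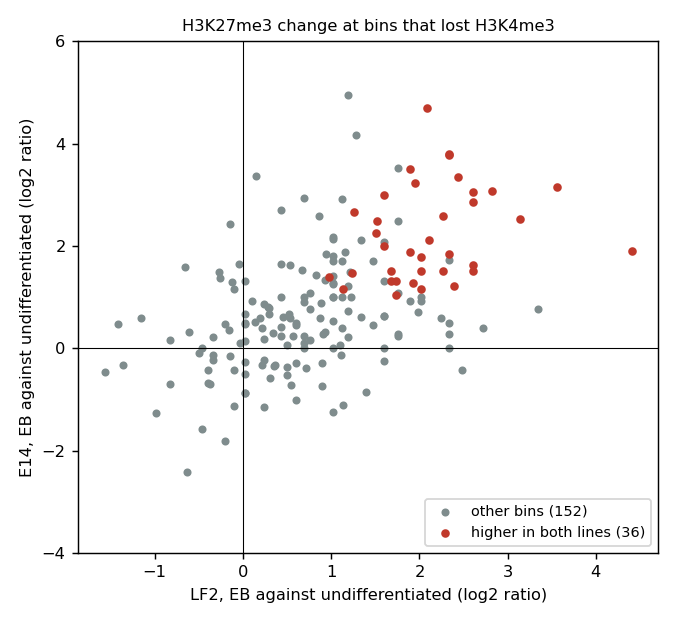
H3K27me3 log2 ratio of EBs against undifferentiated cells in LF2 (horizontal axis) and E14 (vertical axis) for the 188 bins that lost H3K4me3 and had 10 or more reads in the 2 libraries of each line. Each point is a bin, and the 36 red points were called higher in both lines. Of the 188 points, 128 have positive ratios in both lines.

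Calls made in one line could be read in libraries of the other. The 87 bins called higher in E14 held 434 reads in undifferentiated LF2 and 1202 in LF2 EBs, 2.80 times as much (2.51 to 3.14), with medians of 4 and 13 reads per bin. The 784 bins not called in E14 still held 1.29 times as much in LF2 EBs (1.22 to 1.36), although their median log2 ratio was 0.02. Read the other way, the 54 bins called in LF2 held 776 and 2325 reads in E14, or 2.99 times (2.76 to 3.25), with medians of 8 and 36.5, and the 817 others 1.30 times (1.25 to 1.35). The bins called in one line were thus also the higher ones, as a sum, in the other.

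No single 2 kb bin passed when LF2 and E14 were tested together in limma, with the line as a block. Of the 871 bins 634 had 10 or more reads over the 4 libraries, and 0 of them had a Benjamini-Hochberg adjusted p under 0.05 in either direction, where 0.0% of the 771878 autosomal bins tested were called. At an unadjusted p under 0.05, 112 of the 634 were higher and 8 lower (17.7% and 1.26%), beside 1.96% and 2.00% of all autosomal bins. Limma voom also called 0. On simulated data, with changes placed only in bins well above the read minimum, this test recovered 1% of 2 kb bins raised 4-fold.

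In 10 kb bins, which hold more reads, the test called 29 of the 743 bins that contain the regions, all higher in EBs and none lower (limma, adjusted p under 0.05). This is 3.90%, where 0.061% of all autosomal 10 kb bins were called higher and 0.0746% lower. The 29 had log2 changes from 1.28 to 3.03, lay on 15 chromosomes and had a positive ratio in both lines in 29 of 29, which the call nearly requires. Over the 743 the median log2 change was 0.20, beside 0.03 over all autosomal bins. The median was 0.30 in LF2 alone and 0.14 in E14 alone. The fit found no spread between bins beyond its trend, so each p rests on the spread pooled over bins and not on that of the bin itself. Without the replicate block 1 of the 743 was called, the chromosome 17 bin from 35640001, and the limma adjusted p of the 9 other 10 kb bins named by rule was then 0.081 to 0.998. With background scaling 11 were called.

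As a description only, 29 of the 29 bins were higher in XT67E1 EBs than in undifferentiated XT67E1. With atRA 27 of 29 were higher. The XT67E1 ratios are tilted upward, since the choice capped the undifferentiated reads of the 2 kb bin inside. Against undifferentiated XT67E1, 10 kb windows centred on all the regions had median log2 ratios of 0.67 in EBs and 0.18 with atRA. The share of higher bins was not counted over other 10 kb bins, so whether the 29 stand out in XT67E1 was not tested.

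The 10 kb bin with the lowest adjusted p, of those holding the 871 bins, was on chromosome 7. The bin from 152046001 to 152048000 held 2 H3K27me3 reads in undifferentiated XT67E1, 52 with atRA and 30 in EBs. It held 2 reads in undifferentiated LF2 and 34 in LF2 EBs, and 10 and 97 in E14. The EB libraries of all 3 lines were thus above their undifferentiated libraries, and in XT67E1 atRA gave the higher count. The limma log2 change over LF2 and E14 was 3.36 (SE 0.42, adjusted p = 0.90) in the 2 kb bin and 2.98 (SE 0.32, adjusted p = 1.0e-15) in the 10 kb bin around it. Its H3K4me3 reads were 62, 11 and 20 undifferentiated, with atRA and in EBs.

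A pair of adjoining bins on chromosome 17 had the highest 10 kb value. From 35642001 to 35644000, H3K27me3 reads were 2, 10 and 16 in XT67E1 undifferentiated, with atRA and in EBs. The same bin held 1 and 13 reads in LF2 undifferentiated and EBs, and 4 and 41 in E14. From 35644001 to 35646000 the counts were 5, 5 and 11 in XT67E1, 1 and 7 in LF2, and 0 and 28 in E14. Here EBs were above atRA in XT67E1 in both bins, unlike on chromosome 7 from 152046001, but the counting interval of that ratio did not exclude 1 in either bin. The 10 kb bin rose by 3.03 (SE 0.37, limma adjusted p = 1.1e-11).

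On chromosome 9 from 110846001 to 110848000, 136 H3K4me3 reads before differentiation became 31 with atRA and 56 in EBs. H3K27me3 reads there were 3, 4 and 13 in XT67E1 undifferentiated, with atRA and in EBs, 3 and 8 in LF2, and 0 and 30 in E14. In XT67E1 EBs were above atRA here by the size rule. The adjoining bin from 110848001 held 3, 9 and 10 reads in XT67E1, 2 and 14 in LF2, and 1 and 27 in E14. The 10 kb bin rose by 2.39 (SE 0.35, limma adjusted p = 9.5e-08). A second stretch on chromosome 9, from 20820001 to 20822000, held 5, 12 and 12 reads in XT67E1, 4 and 20 in LF2, and 1 and 51 in E14, and its 10 kb bin rose by 2.37 (SE 0.33, limma adjusted p = 8.5e-09).

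Chromosome 7 from 28112001 to 28116000 was changed over adjoining bins. The first of them held 5, 16 and 11 reads in XT67E1, 4 and 13 in LF2, and 7 and 37 in E14. The second held 2, 17 and 12 reads in XT67E1, 3 and 19 in LF2, and 3 and 54 in E14. On the same chromosome the bin from 114352001 to 114354000 had 0 reads in undifferentiated XT67E1 and 11 each with atRA and in EBs. That bin had 4 and 18 reads in LF2 and 8 and 84 in E14, the largest count of the 7 libraries being in E14 EBs.

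Of the 10 bins richest in H3K4me3 before differentiation, 3 were called higher in E14 EBs by the size rule and 1 of these in LF2 EBs. Most of the 10 had too few reads for a call in E14, and in LF2 only the chromosome 8 bin from 74844001 had enough. Of all autosomal bins with enough reads, 3.13% were called higher in E14 and 2.04% in LF2. The richest, on chromosome 11 from 62416001 to 62418000, held 217 H3K4me3 reads before, 101 with atRA and 73 in EBs. Its H3K27me3 reads were 6, 2 and 3 in XT67E1, 4 and 1 in LF2, and 1 and 6 in E14, with no common direction. The next, on chromosome 7 from 3218001 to 3220000, held 206, 58 and 79 H3K4me3 reads, and H3K27me3 reads of 5, 2 and 9 in XT67E1, 1 and 4 in LF2, and 2 and 18 in E14, and it was called in E14 while LF2 had too few reads to call. On chromosome 17 from 35088001 to 35090000, 189 H3K4me3 reads became 94 and 72, with H3K27me3 at 4, 1 and 3 reads in XT67E1, 2 and 2 in LF2, and 4 and 3 in E14. Chromosome 8 from 74844001 to 74846000 was the bin called in both lines. Its H3K4me3 reads were 188, 61 and 74, and its H3K27me3 reads were 7, 26 and 22 in XT67E1, 3 and 23 in LF2, and 6 and 50 in E14. Its 10 kb bin was the only one called higher among those of the 10 (log2 change 2.35, SE 0.32, limma adjusted p = 4.0e-09). On chromosome 6 from 122658001 to 122660000, H3K4me3 reads were 180, 39 and 55. H3K27me3 reads there were 4 and 2 in LF2, too few to call, and 0 and 14 in E14. The 10 kb bin around it held 10 and 18 reads in LF2 and 10 and 37 in E14, and was not called (limma adjusted p = 0.161).

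The lowest 2 kb changes rested on few reads. The lowest, on chromosome 17 from 35136001 to 35138000, held 8 and 1 reads in LF2 and 4 and 0 in E14, with 2, 0 and 4 in XT67E1. On chromosome 19 from 45822001 the counts were 7 and 0 in LF2 and 6 and 3 in E14. On chromosome 10 from 80606001 they were 6 and 0 in LF2 and 5 and 2 in E14, and on chromosome 16 from 38446001, 2 and 0 in LF2 and 7 and 1 in E14. Each of these bins was low in EBs of both lines, and none passed the test. A larger count fell at a bin outside the naming rule, chosen after its values were seen. On chromosome 6 from 48570001 to 48572000, E14 held 42 reads undifferentiated and 7 in EBs and LF2 10 and 6, while XT67E1 held 5, 30 and 17.

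In E14 the ratio of summed reads was highest at bins with the most H3K4me3 at the start. Bins with 25 to 49, 50 to 99 and 100 or more H3K4me3 reads held 1.46 (1.40 to 1.53), 1.61 (1.52 to 1.71) and 2.21 (1.90 to 2.57) times as much H3K27me3 in E14 EBs. In LF2 the ratios were 1.46 (1.38 to 1.55), 1.60 (1.47 to 1.75) and 1.57 (1.27 to 1.93), so the intervals of the upper classes overlapped. Kept bins stayed at or below 1.01 in each class of both lines. The highest class holds 45 bins, of which only 21 had enough reads for a call in E14 and 11 in LF2. Over all bins of each class the median log2 ratio was 0.15, 0.28 and 0.32 in E14, and 0.32, 0.43 and 0.34 in LF2. In E14 the medians thus differed less between classes than the sums, and the intervals of the sums do not cover the spread between bins. By the H3K4me3 that remained, the 202 bins with at most 0.25 left in both libraries had ratios of 1.52 in LF2 and 1.51 in E14, and the 669 others 1.50 and 1.56.

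**Figure D3:**
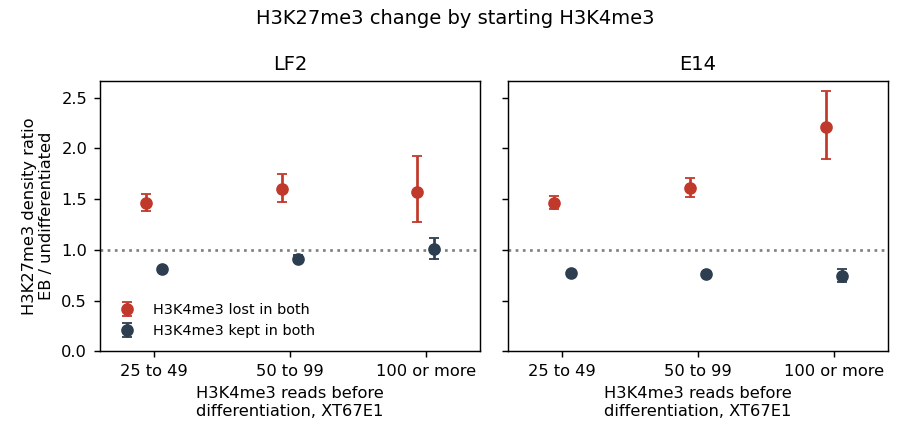
Ratio of summed H3K27me3 in EBs to undifferentiated cells (vertical axis, scaled to autosomal reads) in LF2 and E14, by the H3K4me3 reads of the bin in undifferentiated XT67E1. Red points are bins that lost H3K4me3 with both treatments, dark points bins that kept it, and bars are counting 95% intervals. Red points lie above 1 in every class, up to 2.21 in E14, and dark points between 0.743 and 1.01.

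Bins were also split by their neighbours. The 96 bins that lay beside a kept bin held 1.39 times as much H3K27me3 in LF2 EBs (1.17 to 1.66) and 1.23 times in E14 EBs (1.07 to 1.42). The 258 bins beside another bin that lost the mark held 1.66 (1.53 to 1.81) and 1.65 times (1.55 to 1.75), and the 517 beside neither 1.45 (1.37 to 1.54) and 1.53 times (1.47 to 1.60). In E14 the first interval lay below that of the second group, and in LF2 the intervals overlapped. In XT67E1, bins beside a kept bin held 372 reads with atRA and 542 in EBs, 1.47 times (1.28 to 1.68), whereas those beside neither held 1.09 times (1.04 to 1.14).

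The higher H3K27me3 reached beyond the 2 kb bin and was strongest inside it. In E14 the ratio of EBs to undifferentiated cells was 1.55 within the bin, 1.42 at 1 to 2 kb from its centre, 1.36 at 2 to 5 kb, 1.15 at 5 to 10 kb and 1.13 at 10 to 20 kb. In LF2 the same zones gave 1.51, 1.43, 1.26, 1.12 and 1.03. Around kept bins the ratio was 0.766 inside and 0.985 at 10 to 20 kb in E14, and 0.850 and 0.942 in LF2. The shape of the undifferentiated level differed between the lines. XT67E1 dipped from 0.390 at 10 to 20 kb to 0.243 inside the bin, while E14 went up from 0.494 to 0.678 and LF2 from 0.476 down to 0.394. Around kept bins XT67E1 also dipped, from 0.397 to 0.269, and E14 also went up, from 0.431 to 0.675, while LF2 stayed near level at 0.455 and 0.45. The choice capped the XT67E1 reads inside both kinds of bin, and how far this made the dip was not tested.

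**Figure D4:**
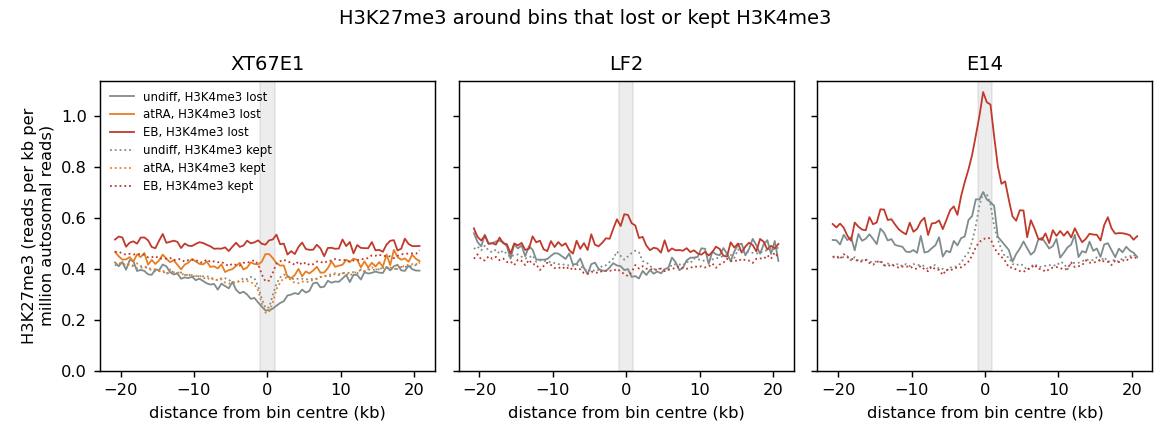
Mean H3K27me3 level (RPKM over autosomal reads, vertical axis) by distance from the bin centre, in the 3 lines. Solid lines are bins that lost H3K4me3 with both treatments, dotted lines kept bins, and the shaded band is the 2 kb bin. The solid EB line peaks over the bin in E14 and LF2, and in XT67E1 it is level across the dip of the undifferentiated line.

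Some of the bins were not free of H3K27me3 in the other lines before differentiation. The limit of 20 reads in XT67E1 corresponds by depth to 10.9 reads in LF2 and 11.0 in E14. By that measure 41 of the 871 bins (4.71%) were at or above the limit in undifferentiated LF2 and 83 (9.53%) in undifferentiated E14, close to the 4.97% and 8.87% of kept bins. The 35 bins above it in both lines held on average 36.5 reads in undifferentiated E14 and 47.9 in E14 EBs, and 18.2 and 22.9 in LF2. Kept bins of that kind, 206 in number, went from 28.2 to 15.7 in E14 and from 17.2 to 10.5 in LF2. The 782 bins below the limit in both lines held on average 3.61 and 6.25 reads in E14 and 2.59 and 3.85 in LF2. The 5402 kept bins below it in both lines held 4.36 and 3.77 in E14 and 3.13 and 2.81 in LF2. Because the undifferentiated reads made this split, changes are tilted downward above the limit and upward below it. That tilt holds for both kinds of bin, so the values are a description.

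In EBs the share at or above the same level was 11.6% in LF2 (101 bins) and 18.5% in E14 (161 bins), while over kept bins it was 3.07% and 4.97%. Over all autosomal bins it was 3.38% and 2.51%. In XT67E1, where the choice set the starting share to 0, 71 bins (8.15%) were at 20 reads or more with atRA and 69 (7.92%) were at the corresponding depth in EBs, against 1.49% and 1.67% of kept bins. Bins with both H3K4me3 and H3K27me3 before differentiation, 180 in number, give a scale. Their H3K27me3 was 14.9 times the autosomal mean in undifferentiated XT67E1, and that of the bins that lost H3K4me3 reached 1.25 times in EBs of XT67E1, 1.47 in those of LF2 and 2.60 in those of E14.

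**Figure D5:**
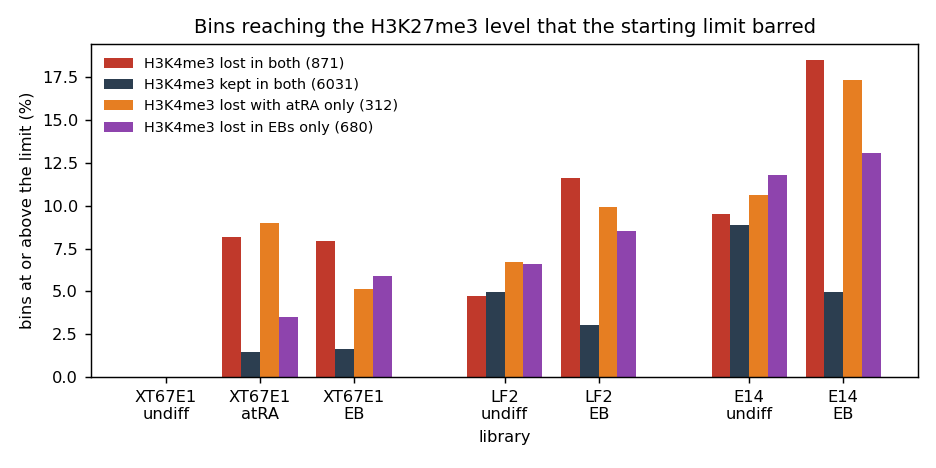
Percent of bins (vertical axis) that reached the H3K27me3 level barred by the starting limit, 20 reads in undifferentiated XT67E1 or the same share of autosomal reads in each other library, for bins grouped by what happened to their H3K4me3. For EBs the red bars stand at 7.92% (XT67E1), 11.6% (LF2) and 18.5% (E14), and the dark bars of kept bins at 1.67%, 3.07% and 4.97%. The undifferentiated XT67E1 bars are 0 by the choice of bins.

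Within XT67E1, the H3K27me3 libraries made with atRA and from EBs took no part in the choice and could be set against each other. The 871 bins held 6242 reads with atRA and 7010 in EBs, 1.13 times as much (1.09 to 1.17), while kept bins held 1.48 times as much in EBs (1.45 to 1.50). By the size rule 27 of 457 bins were higher in EBs and 15 lower, or 5.91% and 3.28% beside 2.24% and 2.54% of all autosomal bins. At kept bins 7.24% were higher and 1.38% lower, so the share of higher bins was not particular to the 871. The direction over the 871 bins depended on scaling: with background scaling, which moved all ratios of this comparison by -0.25, it was 0.953. Relative to kept bins EBs were lower than atRA at 0.765 times. The 54 bins called higher in LF2 EBs held 1170 reads with atRA and 1043 in EBs of XT67E1, or 0.898 times (0.826 to 0.977).

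Of the 71 bins with 20 or more reads with atRA and the 69 in EBs, 48 were the same bins, 67.6% of the first and 69.6% of the second. Over all autosomal bins 3.69% were at that level with atRA and 2.19% in EBs. Their overlap is not given here, so the 48 are a description of these bins only. Of the 48, 2 held more than 2-fold as many reads with atRA as in EBs, and the opposite case was not counted. Chromosome 1 from 138848001 to 138850000 was a bin with more reads with atRA, with 4, 32 and 13 reads in XT67E1 undifferentiated, with atRA and in EBs. Its EB against atRA log2 ratio was -1.23, called lower by the size rule. It had 0 and 20 reads in LF2 and 16 and 63 in E14. Chromosome 4 from 135804001 to 135806000 held about equal counts, with 2, 26 and 30 reads in XT67E1, 3 and 16 in LF2, and 10 and 47 in E14.

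Against undifferentiated XT67E1 the ratios are a description only, because the cap on its reads tilts them upward at these bins and at kept bins alike. The level at the 871 bins was 2.08 times higher in EBs (2.00 to 2.17) and 1.84 times with atRA (1.77 to 1.92), beside 1.37 and 0.923 times at kept bins under the same cap. By the size rule 120 of 404 bins were higher and 0 lower in EBs. Of kept bins, which are under the same cap, 173 of 2613 were higher and 18 lower. Of all autosomal bins, which are not capped, 2.03% were higher and 2.23% lower. With atRA 118 of 330 were higher and 3 lower, where 2.22% and 2.02% of all autosomal bins were. Of kept bins 74 of 1607 were higher and 30 lower with atRA. The comparisons of EBs and of atRA share their control library.

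Bins that lost H3K4me3 with a single treatment differed in H3K27me3 ratio by treatment in XT67E1 and E14, but not in LF2. In XT67E1 the bins that lost it with atRA only held 1.08 times as much H3K27me3 in EBs as with atRA (1.02 to 1.14), and those that lost it in EBs only 1.56 times (1.49 to 1.63), beside 1.13 where both treatments lost it and 1.48 at kept bins. In the other lines the EB ratios were 1.11 (1.02 to 1.20) and 1.11 (1.05 to 1.17) in LF2, and 1.19 (1.12 to 1.26) and 0.995 (0.955 to 1.04) in E14. Loss with both treatments, at 1.51 and 1.55, went with the highest ratio of the 4 groups in both lines. Its counting intervals did not overlap the others, but they do not cover the spread between bins or between libraries.

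The higher H3K27me3 was spread over the chromosomes. The summed ratio of EBs to undifferentiated cells was above 1 on 19 of 19 autosomes in LF2 (1.17 to 2.29) and on 18 of 19 in E14 (0.973 to 2.40). Without chromosomes 8 and 14 the median log2 ratio over bins with 10 or more reads was 0.71 in LF2 and 0.48 in E14, beside 0.76 and 0.50 with them.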

How the data were processed

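The authors deposited 1 file of read positions per library, each row an interval of 200 bp on mm9 (build per the submitters' processing notes) with no value or strand. The aligner, any filter and the origin of the 200 bp length: not given in the sources used here. Files of a set hold equal read numbers, so a weaker or stronger pull-down overall cannot be seen. Interval midpoints were counted in bins with Python 3.11.15 and NumPy 2.4.6. Log2 ratios add 1 read and are scaled to autosomal reads, which understates low bins. Alternatives scaled instead by the median ratio over 10 kb bins, or by the reads in 10 kb bins at or below the median coverage (background scaling). Others changed the pseudocount, the read minimum, the limits, the window and the fit. Limma 3.58.1 (R 4.3.3, trend, two-sided) was fitted to all bins of LF2 and E14, with at least 10 reads per 2 kb bin or 20 per 10 kb bin over the 4 libraries and the cell line as a block. The 2 libraries of a line come from the same line, and their deviations from the condition means correlated at 0.07 (2 kb) and 0.16 (10 kb). The p-values rest on 2 lines with 1 library per condition. On simulated data the 10 kb fit over 239116 bins recovered 99% of bins raised 4-fold and 13% raised 2-fold. It recovered 43% of bins lowered to 0.25 and 8% lowered to 0.5, with 11 false calls. Recovery by read depth, or for a change that differs between the lines, was not tested. The bins and lists were chosen with earlier results of these data known. Bins are named by rule: the 10 with the most undifferentiated H3K4me3 reads, the 8 highest and 4 lowest limma changes at 2 kb, and up to 10 in called 10 kb bins, of which those that show a pattern are described. The gene lists, the marker genes and sequence features could not be placed on mm9 and are not analysed here. Splits by the call in the other line, by starting H3K4me3 and by neighbours were chosen after the data were seen.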

Additional observations from a re-analysis of the deposited data

How the results depend on the processing

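The limits are 1 library per group, few reads per 2 kb bin and unknown filters before deposit. Medians over bins with 10 or more reads were 0.76 in LF2, 0.50 in E14, 0.18 for XT67E1 EBs against atRA, 1.01 for XT67E1 EBs against undifferentiated cells and 1.00 for atRA. With a pseudocount of 5 reads they were 0.53 (LF2), 0.38 (E14), 0.60 (XT67E1 EBs) and 0.59 (atRA). With no read minimum the values were 0.34, 0.22, 0.33, 0.75 and 0.32 in the order above, and in 10 kb windows 0.31, 0.17, 0.48, 0.67 and 0.18. Background scaling gave 0.52 in LF2 and turned EBs against atRA to -0.067. With at most 0.25 of H3K4me3 left the median was 0.52 in LF2 and 1.14 in XT67E1 EBs, and with 50 or more H3K4me3 reads 1.02 and 1.13. The cause of these shifts was not tested, apart from the shrinkage that a larger pseudocount brings by construction. Shifting bins by 1 kb, fewer than 10 H3K27me3 reads, median-of-ratios scaling and leaving out chromosomes 8 and 14 kept the 5 medians within their limits.

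In limma at 2 kb, 18 bins were called higher with median-of-ratios scaling and 11 with background scaling, against 0, and the fit then pooled the spread fully over bins. Among the 743 bins of 10 kb, 29 were called, 1 without the replicate block, 11 with background scaling and 46 with XT67E1 added, which is not independent of the choice of bins. No bin was called lower under any of these settings. Leaving out LF2 or E14 leaves 1 pair and no test. The 2 kb change of chromosome 11 from 62416001 turned to -0.10 with XT67E1 added, and that of chromosome 19 from 23216001 to 0.018 with voom and 0.35 with XT67E1 added. The call on chromosome 15 from 79760001 was lost with voom (limma voom adjusted p = 0.31).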

Other observations

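On the X chromosome, which the rule left out, 27 bins met the same limits. They held 62 H3K27me3 reads in undifferentiated LF2 and 258 in LF2 EBs, 4.21 times as much (3.18 to 5.65), and 62 and 172 in the male line E14, 2.77 times (2.06 to 3.76). In XT67E1 they held 226 reads with atRA and 292 in EBs, 1.30 times (1.09 to 1.56). The 180 X bins that kept H3K4me3 held 2.09 times as much in LF2 EBs (1.87 to 2.33), 0.792 times in E14 EBs (0.684 to 0.917) and, in XT67E1, 2.28 times as much in EBs as with atRA (2.09 to 2.50). In LF2 and E14, whose libraries took no part in the limits, X bins that lost H3K4me3 held more in EBs than before differentiation, while X bins that kept it held more in LF2 EBs and less in E14 EBs. Undifferentiated XT67E1 is left out here, because the limits capped its reads. Each value comes from 1 library per group and has no replicate test.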
